A study of Homo sapiens with 3 samples.

Results

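The genes described here carry the symbol ZNF plus a number, the name given to most human zinc finger genes, with a final A or B allowed. Of 522 rows of the count table with such a symbol, 267 were kept, out of 57736 rows in all. A row was kept with at least 300 counts summed over the 3 libraries, and rows were left out where the symbol stood in more than 1 row or the gene was a pseudogene or an antisense RNA. The members were thus chosen by their summed counts, and their levels are given only as a description. No row was chosen by a change between groups. However, the sum holds 2 HDAC2 knockdown libraries and 1 wild-type (WT) library, so near the limit it favours genes with more counts in knockdown cells. ZNF527 was kept at the limit with 115 and 127 counts in the knockdown libraries, against 58 in WT. All 267 passed the filter on low counts, and 14524 genes were tested in all.

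The cells were TOV21G, an established human line of clear cell ovarian cancer, and their total RNA was sequenced. The line carries a mutation in ARID1A, whose protein belongs to the chromatin remodeller SWI/SNF. Both groups share this line and this mutation. In HDAC2 knockdown cells (n = 2 libraries) a lentiviral short hairpin RNA against HDAC2, a class I histone deacetylase, had been introduced, with a different hairpin in each library, called shRNA 1 and shRNA 2. The WT group (n = 1 library) was the line labelled as wild type for HDAC2. Whether a control virus was given to WT cells is not in the labels, and effects of transduction and of HDAC2 loss cannot be told apart. The question was which genes respond to loss of HDAC2 where ARID1A is mutated. With 1 WT library, every p-value rests on the spread between 2 different hairpins and takes the same spread for WT.

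The libraries held 11398791 counts (shRNA 1), 11225492 counts (shRNA 2) and 10138479 counts (WT). HDAC2 RNA stood at 33.4 and 51.6 CPM (counts scaled by edgeR's TMM method to a common library total) with shRNA 1 and shRNA 2, against 105 CPM in WT, so log2 fell by 1.31 ± 0.20 (SE), with a Benjamini-Hochberg adjusted p of 4.82e-04 in edgeR's quasi-likelihood fit. Of the markers of such a line, PAX8 had 250.5 and 174 CPM in the knockdown libraries, against 263 CPM in WT, and KRT18 had 431 and 481 CPM, against 475 CPM in WT. NAPSA had at most 4 counts in any library. Summed markers reached at most 0.785 CPM for leukocytes, 9.46 CPM for fibroblasts and 0.872 CPM for endothelial cells in any library, and CD3E, LUM and KDR were at 0 throughout.

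Proteins of this family hold C2H2 zinc fingers, short folds in which a pair of cysteines and a pair of histidines bind a zinc ion and which in tandem arrays read DNA. The largest subfamily joins the fingers to a KRAB domain. That domain binds TRIM28, a scaffold that brings in the histone methyltransferase SETDB1, heterochromatin proteins and the NuRD complex, which contains HDAC1 and HDAC2. Many KRAB zinc finger genes lie in clusters on chromosome 19, and many of their proteins bind transposable elements. A profile search of the proteins in GENCODE release 29 found a KRAB domain in 172 members. A SCAN domain, which lets such proteins pair, was found without KRAB in 4 members, and 89 members held neither. The gene IDs that the count table gives for ZNF595 and ZNF2 were not found in that release, so their proteins were not searched. The members' proteins held a median of 11 finger matches, and ZNF462 held the most, with 33. For 7 members no finger match was found, among them ZNF703 and ZNF259, which GENCODE 29 names ZPR1.

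The coding sequence of a single finger and the linker after it shows what these genes share and where they differ. Each line gives 84 coding bases from GENCODE release 29 (GRCh38), 5′ to 3′, with the codons of the zinc-binding cysteines and histidines in capitals. ZNF391, ZNF780B, ZNF91 and ZNF117 were higher in knockdown cells and ZNF358 was lower. For ZNF780B the first finger of the protein is shown, for ZNF391, ZNF91 and ZNF358 finger 2, and for ZNF117 finger 6, for the first 4 genes the first such finger with the family's linker. The ZNF358 window ends in a variant of that linker.
ZNF391: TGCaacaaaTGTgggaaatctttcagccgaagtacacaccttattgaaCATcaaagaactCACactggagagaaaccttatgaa
ZNF780B: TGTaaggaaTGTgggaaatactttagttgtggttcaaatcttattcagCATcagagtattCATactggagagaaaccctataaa
ZNF91: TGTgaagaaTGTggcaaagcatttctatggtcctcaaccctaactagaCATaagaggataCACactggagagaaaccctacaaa
ZNF117: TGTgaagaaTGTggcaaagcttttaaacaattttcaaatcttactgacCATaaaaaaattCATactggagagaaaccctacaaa
ZNF358: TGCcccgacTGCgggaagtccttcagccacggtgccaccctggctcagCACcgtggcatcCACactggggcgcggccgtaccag
The first 4 shared between 63.1% and 77.4% of their bases with each other, and ZNF358 shared at most 58.3% with them. The windows also differed in base composition. GC content was 39.3% in the ZNF391 window, 34.5% in ZNF780B, 41.7% in ZNF91 and 30.95% in ZNF117, and 70.2% in ZNF358. The longest transcripts as a whole had similar values, from 33.2% (ZNF117) to 41.1% (ZNF391) in the 4 genes and 69.1% in ZNF358.

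ZNF genes were more often higher than lower in HDAC2 knockdown cells, by modest amounts. Of the 267, 18 rose, 2 fell and 247 did not pass the test (edgeR's quasi-likelihood test, adjusted p below 0.05 over all genes). The 18 made up 6.74% of the members, where 3.96% of all genes tested rose. The 2 that fell made up 0.749%, where 3.76% of all genes fell. Counted in either direction, 7.49% of the members passed, close to the 7.72% of all genes. The median log2 change of the members was 0.26, beside 0.01 over all genes tested, and lay between -0.72 (ZNF358) and 1.24 (ZNF391). In bulk RNA, fewer cells with a transcript and less of it per cell cannot be told apart.

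DESeq2's Wald test gave an adjusted p for 135 members and called 0 of them, where 1.96% of the genes it adjusted rose, 1.98% fell and 3.94% passed in all. At an unadjusted p below 0.05 it had 21 members higher and 1 lower, and edgeR 73 and 10, where edgeR had 12.4% of all genes higher and 11.1% lower.

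Both hairpin libraries lay above WT for 181 members (67.8%, against 39.9% of all genes) and below it for 50 (18.7%, against 39.3%). The remaining 36 had the hairpins on opposite sides of WT. The median log2 change over WT was 0.19 with shRNA 1 and 0.30 with shRNA 2, a comparison that shares the 1 WT library. Together the members took 0.788% of all counts with shRNA 1, 0.832% with shRNA 2 and 0.693% in WT.

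**Figure D1:**
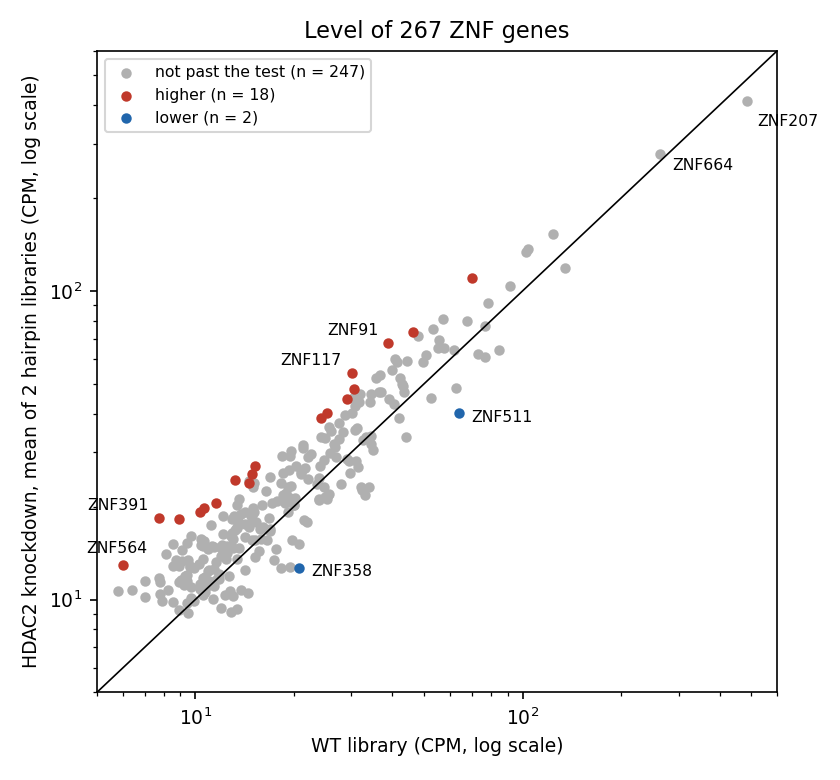
Each point is 1 of the 267 ZNF genes, with its level in the WT library on the x axis and the mean of the 2 hairpin libraries on the y axis, both in CPM on log scales. The black line marks equal levels, and most points lie above it. The 18 genes that rose are red and the 2 that fell are blue.

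ZNF391, on chromosome 6 and without a KRAB match, rose the most. Its level was 17.1 and 19.5 CPM with shRNA 1 and shRNA 2, against 7.72 CPM in WT, from 196 and 221 counts against 77. Both hairpin libraries were more than double the WT level, and log2 was higher by 1.24 ± 0.24 (SE; adjusted p = 0.00367, edgeR fit). None of its 75-base transcript sequences occurs unchanged in another annotated gene. Similar sequences with mismatches were not searched, so whether its counts depend on how reads were divided between genes was not tested.

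Among the KRAB genes that rose, ZNF780B on chromosome 19 had 17.6 and 18.7 CPM with shRNA 1 and shRNA 2, against 8.93 CPM in WT. The hairpin libraries differed little from each other, and log2 rose by 1.03 ± 0.24 (SE), with an adjusted p of 0.0111 in that fit. ZNF564, in the same chromosome, had 12.7 and 13.2 CPM in the knockdown libraries, against 6.02 CPM in WT, a log2 change of 1.10 ± 0.26 (SE). This rise is uncertain, because 64.9% of its read-length sequences also belong to other genes. With such genes summed, the log2 change was 0.44 and did not pass (adjusted p = 0.203, edgeR fit).

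ZNF91 encodes a primate KRAB protein known to repress SVA retrotransposons, and its 31 finger matches were the most among the genes that rose. It had 61.2 and 73.8 CPM with shRNA 1 and shRNA 2, against 38.9 CPM in WT. Both libraries lay above WT, with shRNA 2 higher than shRNA 1, and the log2 change was 0.79 ± 0.19 (SE; adjusted p = 0.0129, edgeR fit).

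ZNF606 and ZNF14, also KRAB genes of chromosome 19, showed a wider gap between the hairpins. ZNF606 had 17.4 and 22.3 CPM with shRNA 1 and shRNA 2, against 10.6 CPM in WT. ZNF14 had 16.2 and 22.3 CPM in the same libraries, against 10.3 CPM in WT. Their log2 changes were 0.90 ± 0.24 and 0.90 ± 0.25 (SE), and each knockdown library was above WT. ZNF529 (28.3 and 25.7 CPM, against 15.2 CPM in WT) and ZNF605 of chromosome 12 (21.1 and 19.9 CPM, against 11.5 CPM in WT) were slightly higher with shRNA 1.

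The remaining KRAB genes named by the ranking were ZNF493, ZNF708, ZNF737 and ZNF627, all of chromosome 19. Their levels in knockdown cells were above those of WT by factors of 1.72, 1.64, 1.61 and 1.59. Their adjusted p-values in the edgeR fit lay between 0.0343 and 0.0495, just under the threshold. The last 4 that passed, ZNF12, ZNF84, ZNF260 and ZNF37A, fell outside the ranking and were named after their values were seen, with folds of 1.53 to 1.59.

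Besides ZNF391 and ZNF260, the genes that rose without a KRAB match were ZNF654 and ZNF117. ZNF654 of chromosome 3 had 24.3 and 24.4 CPM with shRNA 1 and shRNA 2, against 13.2 CPM in WT, so the hairpin libraries were nearly equal. ZNF117 of chromosome 7 had 50.3 and 58.0 CPM in those libraries, against 30.1 CPM in WT. Their log2 changes were 0.88 ± 0.22 and 0.85 ± 0.19 (SE; adjusted p of 0.0185 for ZNF654, 0.00942 for ZNF117).

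The 2 genes that fell, ZNF358 and ZNF511, have neither domain and may both share reads. ZNF358 of chromosome 19 had 13.4 and 11.9 CPM with shRNA 1 and shRNA 2, against 20.8 CPM in WT, a log2 change of -0.72 ± 0.22 (SE; adjusted p = 0.0465, edgeR fit). ZNF511 of chromosome 10 had 40.4 and 39.9 CPM in the knockdown libraries, against 63.9 CPM in WT, a log2 change of -0.67 ± 0.17 (SE; adjusted p = 0.0207). Both hairpin libraries were below WT for each gene. Other genes hold 25.2% of the read-length sequences of ZNF358 and 41.2% of those of ZNF511, whose leading partner, TUBGCP2, lies on the opposite strand. The sources used here do not give whether counting took account of strand. With sharing genes summed, ZNF511 changed by -0.47 and did not pass (adjusted p = 0.0962, edgeR fit).

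**Figure D2:**
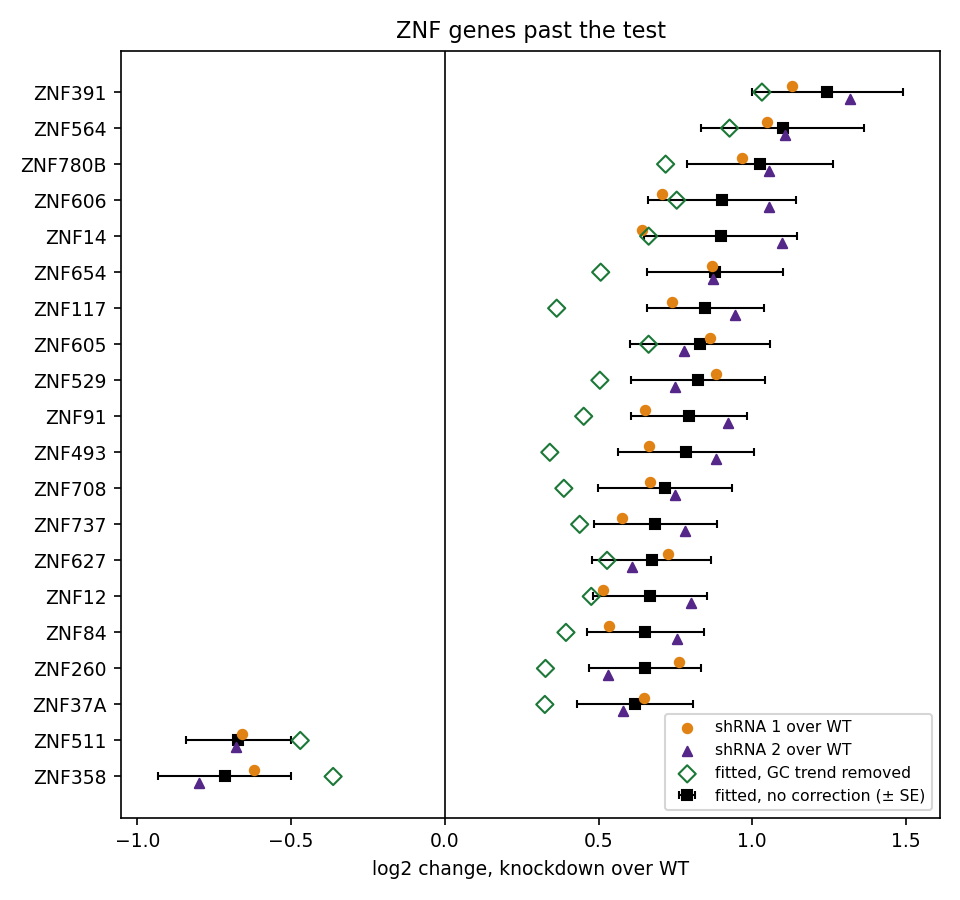
The 20 ZNF genes that passed the test are ordered by fitted log2 change, knockdown over WT, on the x axis. Squares with bars give the fitted change ± SE, circles and triangles the single hairpin libraries over WT with no test, and open diamonds the fitted change with the GC trend removed, which lies nearer to 0 for all 20.

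The transcripts of ZNF genes are low in GC, and the changes ran with GC content. The median GC content of the longest transcript was 43.0% in the members with a value, against 47.95% over the genes tested. Across the 265 members with a value, log2 change and GC content had a Pearson r of -0.64 and a Spearman rho of -0.58. Across all 14124 genes with a value these were -0.33 and -0.48. The points share the same 3 libraries, and genes are not replicates, so these are descriptions. All 18 genes that rose had a GC content between 33.2% and 43.2%.

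Set beside other genes in the same ranges of GC content, the members still lay somewhat higher. The 89 members with the lowest GC content (33.2% to 41.1%) had a median log2 change of 0.40, and 14.6% of them rose. The 2812 other genes of that range had a median of 0.30, and 11.4% rose. In the range from 41.2% to 46.4%, the medians were 0.33 in 88 members and 0.12 in 3069 other genes, with 5.68% and 4.04% that rose. From 46.5% to 70.3% the medians were -0.03 in 88 members and -0.16 in 7758 other genes. There 0 members rose (edgeR fit; 4 were higher at an unadjusted p below 0.05) and 2.27% fell, while 0.993% of the other genes rose and 5.52% fell. Within a range the genes were not matched in GC content. The members' median GC contents in the ranges were 38.4%, 43.1% and 53.1%. Narrow GC bins of all genes tested that hold these values had median log2 changes of 0.29, 0.15 and -0.11.

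With a smooth GC trend removed from each library, 2 members rose, 1 fell, and the median log2 change was 0.12, against 0.00465 over all genes. The correction takes out any change that runs with GC content, whatever its origin. The 2 that rose were ZNF391 (log2 1.03, adjusted p = 0.0126) and ZNF564 (log2 0.93, adjusted p = 0.0407), both in the edgeR fit, and ZNF564 may share reads. They made up 0.749% of the members, where 1.71% of all genes rose in that fit and 4.61% passed in either direction. All 20 genes called without the correction kept their direction, and 18 lost the call. ZNF91 then changed by 0.45 (adjusted p = 0.144, edgeR fit) and ZNF780B by 0.72 (adjusted p = 0.0721).

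The gene that fell in that fit was ZNF207, whose protein (also called BuGZ) binds microtubules and the kinetochore. It had the highest level of all members, with 406 and 418 CPM with shRNA 1 and shRNA 2, against 485 CPM in WT. Both knockdown libraries were lower than WT. The log2 change was -0.24 ± 0.16 (SE; adjusted p = 0.394) without the correction and -0.58 (adjusted p = 0.0321) with it, both in the edgeR fit. This 1 gene made up 0.375% of the members, where 2.89% of all genes fell.

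**Figure D3:**
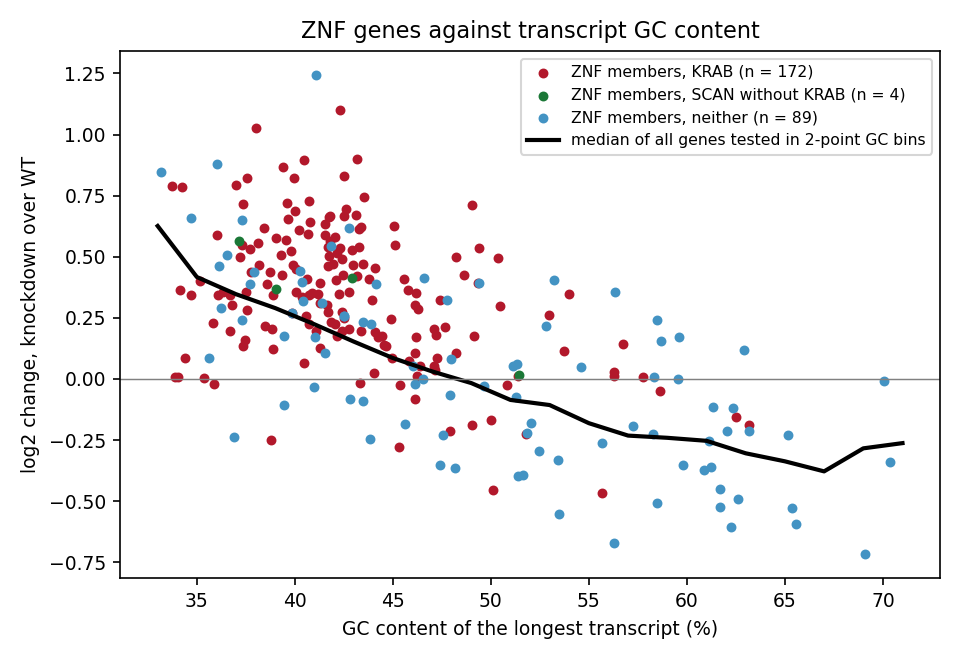
Each point is a ZNF gene with a known protein class, with the GC content of its longest transcript in percent on the x axis and its log2 change, knockdown over WT, on the y axis. The black line is the median of all genes tested in GC bins, and it falls with GC content. Most KRAB genes lie above it.

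KRAB genes had the higher median change. Of 172, 14 rose (8.14%, against 3.96% of all genes) and 0 fell (against 3.76%), with a median log2 change of 0.35 (0.28 with shRNA 1 and 0.38 with shRNA 2). Of the 89 members with neither domain, 4 rose and 2 fell, with a median of -0.000576. Both hairpin libraries were above WT for 138 of the KRAB genes and below it for 11. For the 89 others the numbers were 39 and 38. At an unadjusted p below 0.05, 59 KRAB genes were higher and 1 lower, while among the 89 it was 13 and 9.

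The KRAB genes had the lower GC content, a median of 42.1% against 49.4% in the members with neither domain. With the GC trend removed 1 KRAB gene rose and 0 fell (edgeR fit). The medians were then 0.19 for KRAB genes and 0.02 for the others, so the order held while the gap shrank. Among members of the highest GC content, 34 KRAB genes had a median log2 change of 0.10 and 54 members without KRAB of -0.21, without the correction. Their median GC contents were 50.1% and 56.8%, so these groups were not matched in GC content. In the middle range the medians were 0.36 in 72 KRAB genes and 0.23 in 16 members without (GC content 43.1% and 43.2%). Among members of the lowest GC content they were 0.41 in 66 KRAB genes and 0.39 in 23 members without (38.5% and 37.7%). No test of the difference between the classes was made.

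**Figure D4:**
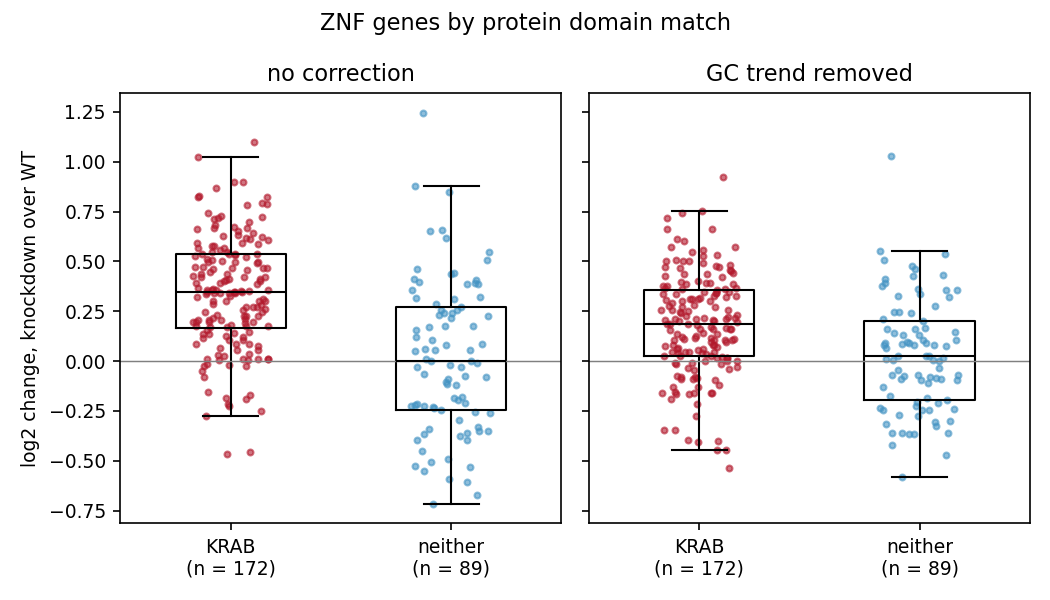
Points give the log2 change, knockdown over WT, of each ZNF gene with a KRAB match (n = 172) or with neither a KRAB nor a SCAN match (n = 89), without correction on the left and with the GC trend removed on the right. Boxes span the quartiles with the median as a line, and whiskers reach to points within the usual box-plot limit. The medians were 0.35 and -0.000576 on the left and 0.19 and 0.02 on the right.

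Of the 4 members with SCAN but no KRAB, 0 passed the test (edgeR fit; 1 was higher at an unadjusted p below 0.05). ZNF24, a SCAN protein, was the nearest. It had 59.1 and 61.1 CPM with shRNA 1 and shRNA 2, against 40.6 CPM in WT, a log2 change of 0.56 ± 0.18 (SE; adjusted p = 0.0577). The count of fingers ran with the change too. Of 60 with 15 or more finger matches 8 rose (13.3%, against 3.96% of all genes) and 0 fell (against 3.76%), with a median log2 change of 0.35. Of 54 with at most 5 matches 1 rose and 1 fell (1.85% each, below the shares of all genes), with a median of 0.03. Median GC content was 41.7% in those with many fingers and 49.7% in those with few. With the GC trend removed the medians were 0.18 and 0.05, so the order held and the gap shrank. In that fit 1 of the 60 rose and 0 fell, and 0 of the 54 rose and 1 fell. Across 265 members, the Spearman rho of finger count with log2 change was 0.31 without the correction and 0.20 with it, as a description across genes.

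Chromosome 19 held 118 of the members, of which 11 rose (9.32%, against 3.96% of all genes) and 1 fell (0.847%, against 3.76%). Their median log2 change was 0.35, against 0.17 for the 149 on other chromosomes or without a place. Of the 149, 7 rose (4.70%, near the share of all genes) and 1 fell (0.671%). With the GC trend removed these medians were 0.16 and 0.09. In that fit 1 member rose and 0 fell on chromosome 19, and 1 rose and 1 fell elsewhere. Among KRAB genes alone the medians were 0.36 for 105 on chromosome 19 and 0.30 for 67 elsewhere, and with the GC trend removed 0.183 and 0.188, so the order turned. Taken in order along the chromosome, with a new run after each gap of over 2000000 bases in GRCh38, the members formed 8 runs. The run of 16 from ZNF101 to ZNF254, all KRAB genes, held 5 of those that rose, ZNF14, ZNF737, ZNF708, ZNF493 and ZNF91. Its median was 0.18 with shRNA 1 and 0.52 with shRNA 2. In the fit it was 0.35 without the GC correction and -0.02 with it, and its transcripts had a median GC content of 37.1%. The 5 made up 31.25% of the run, and with the correction 0 of its members passed (edgeR fit).

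The run of 11 from ZNF599 to ZNF607 had a median of 0.55, the highest of the 8 runs without the GC correction. With the correction it was 0.21, below the runs from ZNF555 to ZNF77 (0.26) and from ZNF358 to ZNF791 (0.24). Without the correction every member had a positive log2 change, with a lowest value of 0.23. ZNF260 and ZNF529 passed the test there (18.2% of the run, against 3.96% of all genes that rose), and with the GC trend removed neither did. The run of 29 from ZNF473 to ZNF331, all KRAB genes, had a lowest value of 0.06 and a median of 0.35, yet 0 of its members passed (edgeR fit; 8 were higher and 0 lower at an unadjusted p below 0.05). Neighbouring members may share sequence, so they are not independent of each other.

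**Figure D5:**
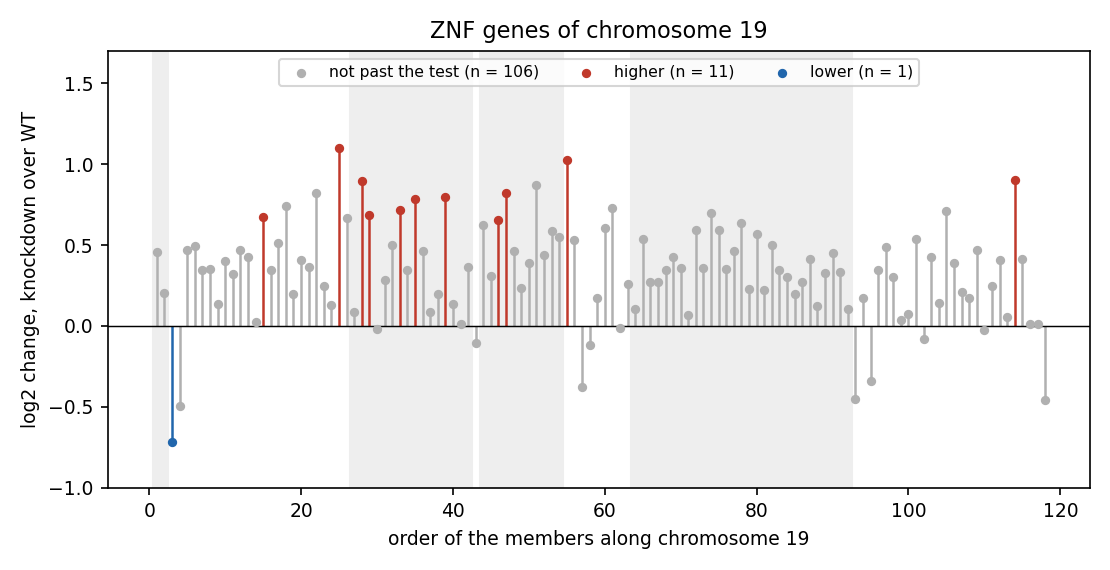
Bars give the log2 change, knockdown over WT, of the 118 ZNF genes on chromosome 19 in their order along it, with shading that alternates between runs of neighbouring genes. Of these genes 11 rose (red) and 1 fell (blue), and most bars point upwards.

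Promoters of 232 members, matched by symbol, were read from RefSeq (GRCh38.p14), as 250 bases before to 50 bases after the gene's start. The letters CCGGAAG, the core bound by factors of the ETS family, occurred on either strand in 43.5% of them, against 19.3% of 9528 promoters of genes tested and 10.3% of all 35116 promoters. The letters CCAAT, the box bound by NF-Y, occurred in 45.3% of the members' promoters, in 37.1% of those of genes tested and in 34.6% of all. Of 17 promoters of genes that rose, 13 held CCAAT and 6 held CCGGAAG. Among KRAB members 53.3% held CCAAT and 48.03% CCGGAAG. Among members without KRAB 28.2% held CCAAT, below the share of genes tested, and 34.6% CCGGAAG. Median GC content was 56.7% in promoters of genes that rose, 61.7% in the members' promoters and 65.3% in those of genes tested. Promoters were not matched in GC content. An occurrence of either motif cannot overlap one of the other. Of the other letters searched, AAGATGG (YY1) occurred in 6.90% of the members' promoters and in 7.80% of those of genes tested, CACGTG (the E-box) in 4.74% and 10.2%, and TGACGTCA (the CRE) in 6.03% and 3.22%.

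The promoters of ZNF91 and ZNF391 are shown because the first gene holds both motifs and the second, the strongest riser, holds neither within this window. ZNF91 lies at chr19:23395422-23395721 on the minus strand and ZNF391 at chr6:27388509-27388808 on the plus strand. Capitals mark CCAAT and, on the other strand, CCGGAAG.
ZNF91: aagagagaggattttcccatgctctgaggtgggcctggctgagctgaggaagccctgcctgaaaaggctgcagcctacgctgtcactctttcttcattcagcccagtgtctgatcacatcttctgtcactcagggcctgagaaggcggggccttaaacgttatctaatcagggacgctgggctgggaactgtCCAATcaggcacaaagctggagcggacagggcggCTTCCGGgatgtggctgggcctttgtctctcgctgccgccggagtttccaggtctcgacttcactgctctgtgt
ZNF391: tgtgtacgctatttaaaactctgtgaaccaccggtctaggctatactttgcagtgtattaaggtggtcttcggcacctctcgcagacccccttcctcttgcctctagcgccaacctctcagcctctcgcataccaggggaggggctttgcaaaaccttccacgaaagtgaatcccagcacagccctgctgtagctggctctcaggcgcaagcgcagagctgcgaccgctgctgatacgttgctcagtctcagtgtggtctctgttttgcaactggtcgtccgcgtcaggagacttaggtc
The windows held 11 and 15 CG pairs, against a median of 22 in the members' promoters and 26 in those of genes tested. A match is only a match of letters.

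Of 24 ZNF genes chosen for their known roles, 20 were members, and ZNF91 alone of these passed the test, a share near the 7.72% of all genes. ZNF217, a gene amplified in breast and ovarian cancers whose protein works with CoREST and LSD1, had 77.1 and 82.1 CPM with shRNA 1 and shRNA 2, against 67.7 CPM in WT. Its log2 change was 0.23 ± 0.17 (SE), so the difference was near the error of the estimate. ZNF281, a factor that binds GC-rich DNA, had 48.2 and 58.6 CPM, against 36.6 CPM in WT, a log2 change of 0.55 ± 0.19 (SE; adjusted p = 0.0839, edgeR fit). ZNF395 had 25.7 and 20.6 CPM, against 34.01 CPM in WT, a log2 change of -0.55 ± 0.20 (SE; adjusted p = 0.102), and may share reads with FBXO16.

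ZNF10, the source of the KRAB domain used in CRISPR interference, changed by 0.44 ± 0.22 (SE) on the log2 scale. ZNF445, which helps to keep genomic imprints, changed by 0.05 ± 0.21 (SE), and ZNF644, a partner of the methyltransferases G9a and GLP, by 0.24 ± 0.19 (SE). The partners ZNF592, ZNF687 and ZNF532, which bind the chromatin reader ZMYND8, differed by -0.22, -0.23 and -0.18. ZNF143, a factor at promoters and chromatin loops, differed by 0.26, ZNF148 by 0.08 and ZNF384 by -0.33. ZNF462, ZNF703, ZNF335 and ZNF202 lay between -0.25 (ZNF335) and 0.00136 (ZNF462), and none of these genes passed the test.

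After ZNF207, the members with the highest mean level over the 3 libraries were ZNF664, ZNF146, ZNF706 and ZNF532, at 123.7 to 273 CPM. Among them ZNF146, a protein made almost wholly of fingers, had 137 and 169 CPM with shRNA 1 and shRNA 2, against 123 CPM in WT. Its hairpin libraries differed more from each other than shRNA 1 did from WT, and the log2 change was 0.31 ± 0.18 (SE). Per kilobase of the longest transcript, ZNF593 was highest of all members, at 68.1 CPM per kilobase averaged over the 3 libraries, followed by ZNF664 at 53.5 and ZNF146 at 37.9. Other genes hold 81.2% of the read-length sequences of ZNF593. Expression at the lower edge was near that of the genes left out. ZNF70, ZNF256 and ZNF527 were kept with 301, 300 and 300 counts, and ZNF772, ZNF782 and ZNF287 were left out with 298, 295 and 292.

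The hairpins differed most for ZNF367, ZNF107 and ZNF274 on the high side of shRNA 2 and for ZNF827, ZNF71 and ZNF580 on its low side. ZNF274, a KRAB protein that brings SETDB1 to the ends of other ZNF genes, had 10.7 CPM with shRNA 1 and 16.4 CPM with shRNA 2, on either side of the 13.4 CPM in WT. ZNF367 had 14.2 and 22.0 CPM with shRNA 1 and shRNA 2, against 21.5 CPM in WT, and ZNF107 had 17.4 and 27.0 CPM, against 18.96 CPM in WT. ZNF827, which can bring the NuRD complex to telomeres, had 32.5 and 23.8 CPM, against 29.5 CPM in WT. In ZNF827, ZNF274, ZNF367 and ZNF107 the knockdown libraries lay on both sides of WT, and each hairpin has 1 library, so this difference has no test.

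Of 27 genes on a list of the corepressor machinery that KRAB proteins use, 26 were tested, 3 rose (11.5%) and 5 fell (19.2%), with a median log2 change of -0.23. Over all genes 3.96% rose and 3.76% fell. The 5 include HDAC2, the target of the hairpins, whose fall was set by the design. With the GC trend removed 0 rose and 3 fell (edgeR fit), HDAC2 itself, UHRF1 and DNMT1. TRIM28, the KRAB-binding scaffold itself, had 135 and 117 CPM with shRNA 1 and shRNA 2, against 190 CPM in WT, a log2 change of -0.60 ± 0.17 (SE; adjusted p = 0.0369, edgeR fit). Both knockdown libraries were lower, and with the GC trend removed the change was -0.30 and did not pass (adjusted p = 0.341, edgeR fit). SETDB1, with 24.9 and 27.4 CPM against 29.5 CPM in WT, differed by -0.17 ± 0.20 (SE) and did not pass.

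DNMT1, the maintenance DNA methyltransferase, had 105 and 109 CPM in the knockdown libraries, against 202 CPM in WT. UHRF1, which guides DNMT1 to newly copied DNA, had 22.1 and 23.3 CPM, against 50.3 CPM in WT. Both fell to nearly equal levels with the 2 hairpins, by 0.92 ± 0.17 and 1.15 ± 0.18 (SE) on the log2 scale, and passed the test also with the GC trend removed (adjusted p-values of 0.0104 and 0.00105). SUV39H1, a methyltransferase of lysine 9 of histone H3, fell to 5.58 and 7.34 CPM, against 13.0 CPM in WT, and lost the call with the GC trend removed (log2 -0.79, adjusted p = 0.111, edgeR fit). HDAC2, the knockdown target, is the fifth that fell. The chromatin remodeller genes ATRX and SMARCAD1 and the ATPase gene MORC3 rose 1.79-fold, 1.56-fold and 1.65-fold, and their calls were lost with the GC trend removed.

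Other zinc finger names were tested in the same fit, where 3.96% of all genes rose and 3.76% fell. Of 129 ZNF genes of the same form with fewer counts that were tested, 2 rose and 0 fell (edgeR fit; 15 higher and 2 lower at an unadjusted p below 0.05), with a median log2 change of 0.21. They were ZNF697 and ZNF709. ZNF709 had 85 and 175 counts with shRNA 1 and shRNA 2, against 12 in WT, so the hairpins were far apart. Of all 179 tested ZNF symbols outside the rule, these included, 5 rose (2.79%) and 2 fell (1.12%), with a median of 0.21. The 2 that fell were rows named ZNF90 and ZNF8, with 329 and 78 counts summed over the libraries. In each case the symbol stood in more than 1 row or the gene was a pseudogene or an antisense RNA. This ZNF90 row had 43 and 101 counts, against 185 in WT, a log2 change of -1.55 ± 0.32 (SE; adjusted p = 0.00476, edgeR fit). It passed also with the GC trend removed (adjusted p = 0.0285), and its fall was larger than that of any member. Of 38 tested ZBTB genes, whose proteins join a BTB domain to fingers, 5 rose (13.2%) and 1 fell, with a median of 0.09. The ZBTB genes that rose included ZBTB10 (46.8 and 57.4 CPM, against 26.1 CPM in WT) and ZBTB33 (47.98 and 48.46 CPM, against 26.1 CPM in WT), both named after their values were seen. With the GC trend removed 1 ZBTB gene rose and 1 fell. ZBTB10 kept its call (adjusted p = 0.0218, edgeR fit) and ZBTB33 lost it (adjusted p = 0.0777). Of 16 ZFP genes and 7 ZKSCAN genes 0 passed (edgeR fit; 1 ZFP gene and 0 ZKSCAN genes at an unadjusted p below 0.05), with medians of 0.23 and 0.25. Of 17 ZSCAN genes 1 rose, ZSCAN18, with a median of 0.15, and of 11 KLF genes 1 rose, KLF6, with a median of 0.14. Both kept the call with the GC trend removed (adjusted p of 0.00436 and 0.00770, edgeR fit). Of 8 PRDM genes 0 passed (edgeR fit; also 0 at an unadjusted p below 0.05), with a median of 0.11.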

How the data were processed

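For 3 libraries of TOV21G cells, the values deposited by the authors are estimated counts, as whole numbers, listed by Ensembl gene ID. Per the labels' protocols, these were ScriptSeq complete Gold libraries read at 75 bases. RSEM 1.2.3, edgeR and hg19 are named in the submitters' processing notes, with no role. Counts were tested with edgeR 4.0.16 (R 4.3.3; quasi-likelihood test, TMM scaling, filterByExpr defaults, Benjamini-Hochberg adjustment over 14524 genes). There was 1 residual degree of freedom and a prior of 18.9. The test was checked on simulated counts. Single-library changes use log2 CPM with a prior count of 2. GC content, gene type and place came from GENCODE 29 (GRCh38), matched by gene ID. Reads were taken as possibly shared where other genes held at least 20% of a gene's 75-base transcript sequences on either strand. The same was done where the gene ID was not found in GENCODE 29. Together these were 26 members. The GC trend was removed by lowess offsets (span 0.3). KRAB and SCAN matches used HMMER 3.4 profiles built from these proteins (E-value at most 0.001). A BTB pattern gave 0 matches and was not used.

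Members and lists were chosen with earlier results of these data known. Named genes were those past the test (at most 14 per direction, by size of change), the 5 highest in CPM, 3 members on either side of the count limit, 3 at each end of shRNA 2 against shRNA 1, and 24 of known role. Libraries were grouped by title. No label says that the hairpin libraries came from separate cultures. Alternatives in scaling, filter, test, GC content, shared reads, count limit and left-out library were tried. The libraries held 10138479 to 11398791 counts.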

Additional observations from a re-analysis of the deposited data

How the results depend on the processing

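Of the members, 18 rose and 2 fell. DESeq2's Wald test called 0 in either direction among the 135 members it adjusted (DESeq2 1.42.0; 21 higher and 1 lower at an unadjusted p below 0.05). Without a filter on low counts edgeR called 0 and 0 (47 and 6 at an unadjusted p below 0.05), with the GC trend removed 2 and 1 (36 and 8 unadjusted), and with library size alone 31 rose. With DESeq2 size factors and with upper quartile scaling 15 rose, and 12 with a mean count of at least 50 and with a count sum of at least 600 (138 members). The 2 falls became 1 with sharing genes summed, with a mean count of at least 50 and with a count sum of at least 600, and 0 with members that may share reads left out. ZNF358, which kept its call with sharing genes summed, was not itself summed with any gene. The median of 0.26 became 0.12 with the GC trend removed, and 0.30 and 0.18 without the library of shRNA 1 and of shRNA 2, fits that allow no test. It was 0.24 to 0.29 under the other scalings, filters, tests and count limits, of which the limit of 200 kept 300 members. The cause of the changed calls was not tested, other than fewer members for the higher count limit and the left-out genes. Directions turned for ZNF462 (-0.0029 by DESeq2's test and by its size factors, -0.0148 with a mean count of at least 50, -0.0071 with upper quartile scaling), and for ZNF274 (-0.0058 with a mean count of at least 50). With the GC trend removed they turned for ZNF70 (0.0070), ZNF107 (-0.1626), ZNF462 (-0.0354), ZNF644 (-0.0945), ZNF148 (-0.2995), ZNF703 (0.0873), ZNF687 (0.0072) and ZNF335 (0.0179), none of them past the test in either fit. They also turned for ZNF367 (0.0374), ZNF445 (-0.0806), ZNF148 (-0.0124), ZNF256 (-0.0124) and ZNF462 (-0.0701) without shRNA 1, and for ZNF274 (-0.3327), ZNF107 (-0.1313) and ZNF827 (0.1283) without shRNA 2. No paired analysis was possible because WT had 1 library. At these depths the SE of a member's log2 change was 0.16 to 0.28, which limits what could be called.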
